A study of Mus musculus with 8 samples.

Results

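The comparison of the TJ-41-containing diet with the control diet took in all 8 libraries of the series, with 4 libraries on each diet. Its members were chosen by their titles: 4 titles carry TJ41 and 4 carry NT. The question was which genes of the lung differ with the diet in the same direction whether or not the lung was injured. Each library is RNA of lung tissue from wild type male C57BL/6 mice. TJ-41 (hochuekkito) is a kampo extract of several herbs that was mixed into the chow at 2% from 8 weeks of age. Each diet was given in 2 models with 2 libraries in each, so that the groups were PBS_NT and PBS_TJ41 for control mice, and elastase+LPS_NT and elastase+LPS_TJ41 for the COPD mice model. Control mice received PBS in place of both agents. For the COPD mice model, porcine pancreatic elastase was put into the trachea at 10 weeks of age and LPS was given from 12 weeks. Elastase digests the elastic fibres of the alveolar wall, and LPS is a bacterial product that inflames it, so the model stands for emphysema with inflammation and not for smoke exposure. The sources used here state neither the day of RNA collection, nor how many mice stood behind a library, nor whether RNA was pooled, and p-values measure the spread between these libraries, which may be technical.

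A herbal diet reaches the body through the gut and the liver, and many plant compounds bind the aryl hydrocarbon receptor, a ligand-activated transcription factor that turns on Cyp1a1 and other genes of xenobiotic metabolism. The lung also holds plasma cells, whose clones each use 1 heavy and 1 light chain variable gene, and the mesothelium, the sheet of cells on the lung surface. In bulk tissue, fewer cells of a type and less RNA per cell cannot be told apart.

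The libraries held 18767295 to 20888042 counts, and 20546 genes passed the filter on low counts. Levels are given as CPM, counts scaled to library size with TMM factors, and differences as log2 fold changes of TJ41 minus NT with the model as an additive term (log2FC). A gene without a count in a library could still have had up to 0.153 to 0.162 CPM there, which covers counting error only. Lung epithelial markers were abundant in every library: the alveolar type II list summed to between 28343 and 55293 CPM and the club and goblet list to between 14550 and 33493 CPM. Between the replicates of a group, the SD of log2 CPM differences was 0.394 to 0.469, except in elastase+LPS_NT, where it was 0.798. PBS_NT replicate 1 and elastase+LPS_NT replicate 2 were high together for several of the genes described here. These 2 libraries held the 2 highest levels for 191 of the 339 genes that were lower on the TJ-41 diet at an unadjusted p under 0.05 (56.3%), against 2372 of all 20546 genes (11.5%). Genes lower on the TJ-41 diet have their highest levels in NT libraries by selection, so the first share is a description. Values without both of them are given beside many of the results. This pair was chosen after the data were seen, and leaving it out leaves 1 NT library in each model. For genes high in both libraries, a smaller difference without them is then expected by selection.

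No gene was a DEG (false discovery rate under 0.05 and log2FC beyond 1) for the diet with both models pooled. The count was 0 of 20546 genes, or 0%, by edgeR's quasi-likelihood test, with 549 genes at an unadjusted p under 0.05 (2.67%). Of these, 210 were higher on the TJ-41 diet (1.02% of the genes tested) and 339 were lower (1.65%). With no diet effect about 1027 genes would pass this threshold by chance. The count of 549 was below that, as were the counts at this threshold for the other contrasts below. The smallest adjusted p was 0.972 in this test. DESeq2 and edgeR's likelihood ratio test each called 5 genes, the same 5 in both: Cyp1a1, Serpina3f and Ighv8-5 lower, and Igkv4-55 and Ighv1-18 higher. The median standard error of a pooled log2FC was 0.188, and for 16854 genes (82.0%) the 95% interval lay within a log2FC of 1 in either direction. In control mice alone no gene was called, with 336 at an unadjusted p under 0.05 and 10 called by DESeq2. In the COPD mice model alone 1 gene was called, the immunoglobulin variable gene Igkv3-12 (0.00487% of the genes tested), with 842 at an unadjusted p under 0.05 and 14 called by DESeq2. That count was 0 without any 1 of the 4 PBS libraries or elastase+LPS_TJ41 replicate 1, 4 without elastase+LPS_TJ41 replicate 2, 13 without elastase+LPS_NT replicate 2 and 728 without elastase+LPS_NT replicate 1. The difference between the diet effects of the 2 models gave 0 calls, with 672 genes at an unadjusted p under 0.05 and 17 called by DESeq2.

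The diet contrast of control mice and that of the COPD mice model share no library. Their signs matched for 10696 of 20546 genes, or 52.1%, with 5076 higher in both models (24.7%) and 5620 lower in both (27.4%). Their log2FC values correlated across genes with a Pearson r of 0.0907 and a Spearman rho of 0.0821. Genes are not independent replicates, and these values describe the libraries. Of the 336 genes at an unadjusted p under 0.05 in control mice, 132 (39.3%) had the same sign in the COPD mice model. Only 48 genes were at an unadjusted p under 0.05 in both models, and 14 of these had the same sign. The matching share was 63.7% without elastase+LPS_NT replicate 1, 34.2% without elastase+LPS_NT replicate 2 and 44.5% without PBS_NT replicate 1. In both models at once, both TJ41 libraries lay above both NT libraries for 379 genes (1.84%) and below them for 361 genes (1.76%), while 1094 genes (5.32%) were separated in both models but in opposite directions.

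**Figure D1:**
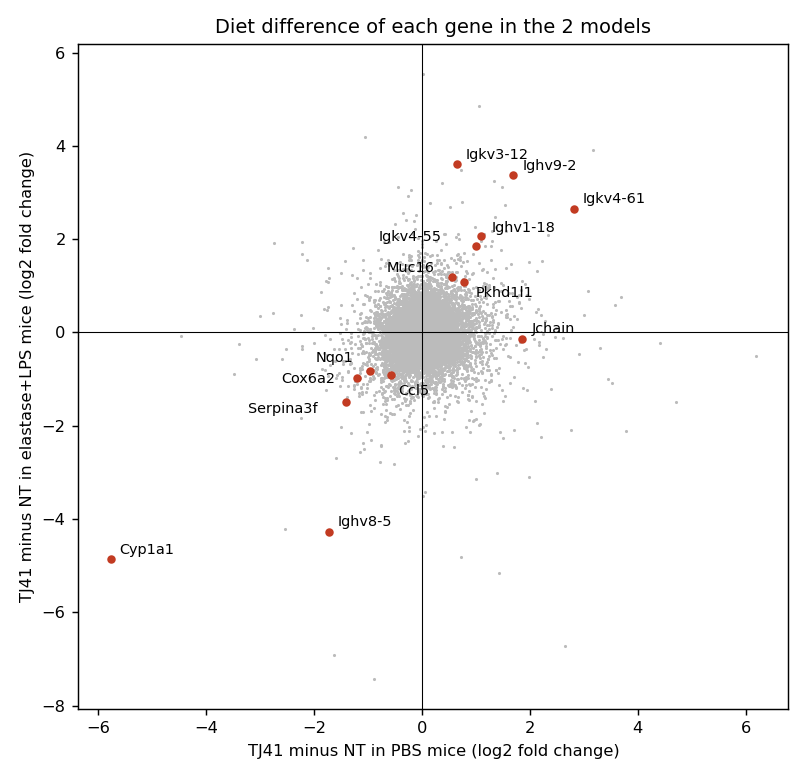
Diet difference of each of the 20546 genes tested, as the log2 fold change of TJ41 minus NT in PBS mice (x axis) and elastase+LPS mice (y axis). Grey points are genes and red points are genes named in the text. The cloud has little slope (Pearson r 0.0907), and Cyp1a1 lies far from the others at the lower left.

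The aryl hydrocarbon receptor genes were led by Cyp1a1, a cytochrome of xenobiotic metabolism and the textbook readout of this receptor. Its gene spans chr9:57687928-57703824 of GRCm38 on the plus strand. In control mice, Cyp1a1 stood at 171 and 5.45 CPM in the PBS_NT libraries and at 1.43 and 1.78 CPM in the PBS_TJ41 libraries. In the COPD mice model it stood at 5.0 and 146 CPM in the elastase+LPS_NT libraries and at 1.98 and 3.22 CPM in the elastase+LPS_TJ41 libraries. All 4 TJ41 libraries lay below all 4 NT libraries, but the NT libraries themselves fell into 1 low and 1 high value in each model. The pooled log2FC was -5.29 (standard error 1.15, lower in both models, adjusted p = 0.972 by edgeR's quasi-likelihood test). It was -5.77 for control mice and -4.86 for the COPD mice model. Without PBS_NT replicate 1 and elastase+LPS_NT replicate 2, the 2 libraries of 146 CPM or more, the log2FC was -1.35. The direction was the same and the size much smaller, with 1 NT library left in each model.

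Nqo1, a quinone reductase that is a target of both this receptor and Nrf2, had its highest levels in the same 2 libraries, at smaller size. It stood at 19.2 and 7.16 CPM in PBS_NT, 6.60 and 6.86 CPM in PBS_TJ41, 8.80 and 16.8 CPM in elastase+LPS_NT and 7.19 and 7.25 CPM in elastase+LPS_TJ41. The TJ41 libraries lay below the NT libraries within each model, with a log2FC of -0.89 (standard error 0.30), but -0.19 without the same 2 NT libraries. Aldh3a1, an aldehyde dehydrogenase of the same group, had a log2FC of -0.67, or -0.12 without the same 2 NT libraries, and its libraries overlapped in control mice. Ahrr, which encodes the repressor of the receptor, was low throughout, at 1.10 CPM in PBS_NT replicate 1 and between 0.408 and 0.702 CPM in the other 7 libraries. Of 10 genes on the list, 9 were tested, and 3 were lower at an unadjusted p under 0.05 (Cyp1a1, Nqo1 and Aldh3a1) and 0 higher, against 1.65% and 1.02% of all genes. Of the remaining 6, Ahrr had a log2FC of -0.47, or -0.11 without the same 2 NT libraries, and Cyp1b1, another cytochrome of the family, had -0.19 and then -0.0099, while 4 were above 0. Among these, Tiparp, which encodes an ADP-ribosyltransferase that dampens the receptor, had 0.06, and Arnt, its dimer partner, had 0.08. Among genes of drug metabolism outside the list, the carboxylesterase gene Ces1f had a log2FC of -0.91, or -0.32 without the same 2 NT libraries, and the flavin monooxygenase gene Fmo2 had 0.20.

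The promoters of Cyp1a1, Nqo1 and Ahrr are shown because these genes share the high level in PBS_NT replicate 1. The sequences are the 250 bases before the RefSeq start of each gene in GRCm38.p6, at chr9:57697363-57697612 (plus strand) for Cyp1a1, chr8:107403206-107403455 (minus strand) for Nqo1 and chr13:74292332-74292581 (minus strand) for Ahrr. Capitals mark the core of the xenobiotic response element, GCGTG, searched on both strands.
Cyp1a1: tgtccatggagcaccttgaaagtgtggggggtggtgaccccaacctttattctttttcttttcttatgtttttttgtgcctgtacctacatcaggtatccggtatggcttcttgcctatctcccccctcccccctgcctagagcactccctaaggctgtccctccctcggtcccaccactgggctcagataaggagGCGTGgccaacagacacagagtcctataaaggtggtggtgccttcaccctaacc
Nqo1: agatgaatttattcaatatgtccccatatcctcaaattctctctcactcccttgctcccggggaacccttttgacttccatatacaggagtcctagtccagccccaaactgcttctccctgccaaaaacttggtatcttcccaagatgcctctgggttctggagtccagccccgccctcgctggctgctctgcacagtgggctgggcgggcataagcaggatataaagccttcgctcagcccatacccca
Ahrr: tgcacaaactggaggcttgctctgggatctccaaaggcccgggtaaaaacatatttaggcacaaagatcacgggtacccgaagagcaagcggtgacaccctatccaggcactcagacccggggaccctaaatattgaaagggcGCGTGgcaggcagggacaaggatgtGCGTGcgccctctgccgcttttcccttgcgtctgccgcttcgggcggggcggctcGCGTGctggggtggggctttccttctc
The Cyp1a1 window held 1 match, starting 54 bases before the start, the Ahrr window held 3, and the Nqo1 window held none. Over the list, 8 of 10 genes had a promoter in the table and 5 of these held a match, while 28.2% of all 32851 promoters of this length did. The letters say nothing of whether a factor was bound.

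The Nrf2 target list holds enzymes of glutathione and NADPH metabolism and the ferritin chains. All 20 of its members had a pooled log2FC below 0, with a median of -0.29 against -0.001 over all genes. Of the 20, 2 were lower at an unadjusted p under 0.05, against 1.65% of all genes: Nqo1 and the glutathione transferase gene Gsta1. Gsta1 was low, at 0.208 to 1.10 CPM, and had a log2FC of -1.06 (standard error 0.45), but 89.7% of its 50-base sequences also occur elsewhere, so its counts are uncertain. The medians were -0.29 for control mice and -0.30 for the COPD mice model. Without PBS_NT replicate 1 and elastase+LPS_NT replicate 2 the median was 0.07, and 13 of the members were higher. Nfe2l2, which encodes Nrf2 itself, stood at 260 and 249 CPM in PBS_NT, 228 and 243 CPM in PBS_TJ41, 286 and 288 CPM in elastase+LPS_NT and 230 and 262 CPM in elastase+LPS_TJ41. Its libraries did not overlap in either model, and the log2FC was -0.17 (standard error 0.11).

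**Figure D2:**
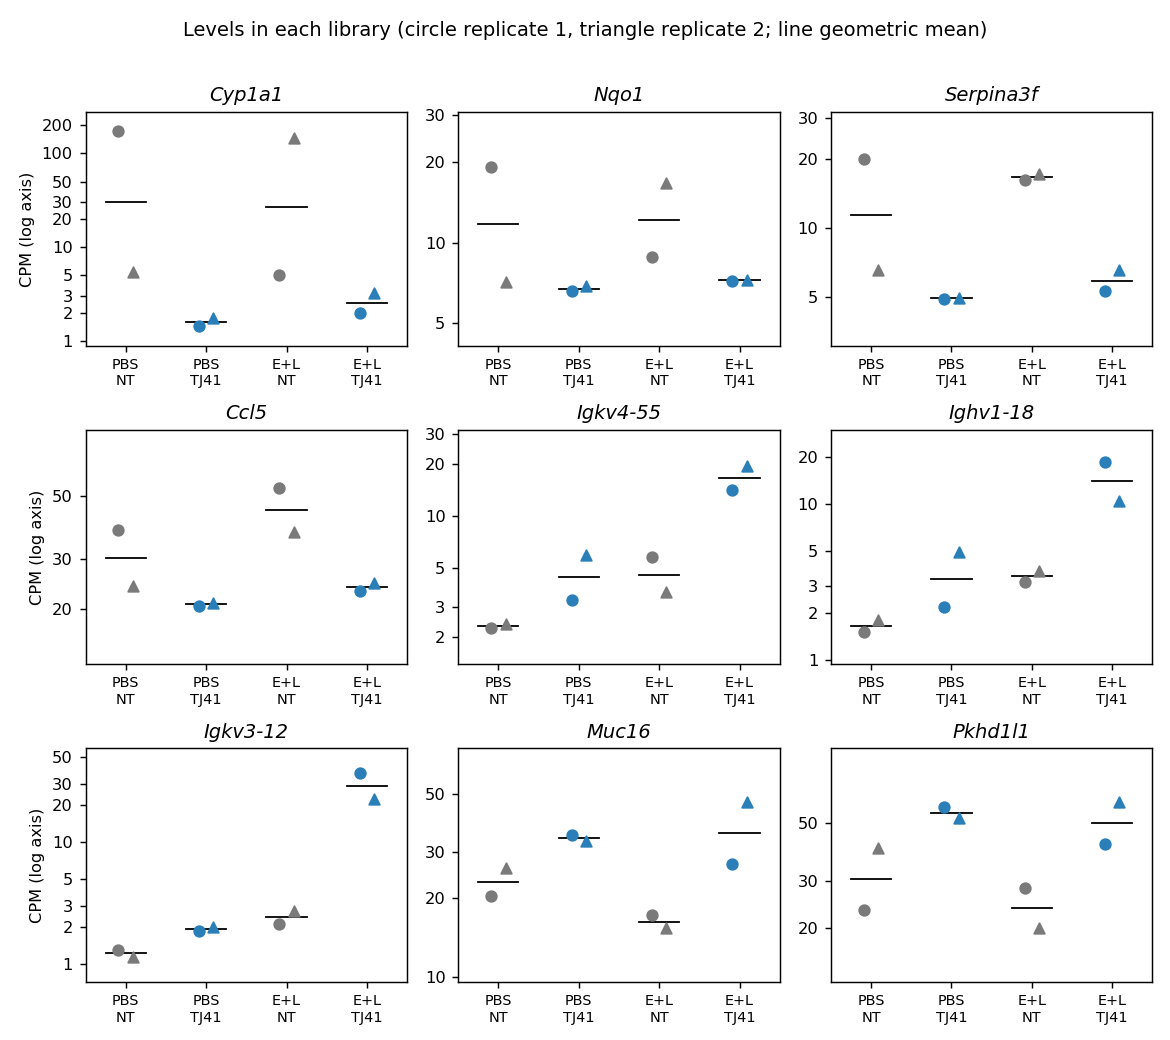
CPM of 9 genes in each library on log axes, with grey for the control diet (NT), blue for the TJ-41 diet, E+L for elastase+LPS, circles for replicate 1, triangles for replicate 2 and a line at the geometric mean of each group. Cyp1a1 and Nqo1 each have 1 high NT library in each model, while Igkv4-55, Ighv1-18, Muc16 and Pkhd1l1 have both TJ41 libraries above both NT libraries in each model.

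Serpina3f, a serine protease inhibitor gene on chromosome 12 (104214544 to 104221129, GRCm38) that belongs to a cluster of close copies, was the gene with the smallest pooled p among those lower in both models without overlap. It stood at 19.9 and 6.53 CPM in PBS_NT and at 4.91 and 4.97 CPM in PBS_TJ41. In the COPD mice model both NT libraries were high, at 16.2 and 17.1 CPM, and both TJ41 libraries were low, at 5.32 and 6.54 CPM. The log2FC was -1.46 (standard error 0.29, lower in both models, adjusted p = 0.972 by edgeR's quasi-likelihood test), and -0.97 without the 2 NT libraries that stand apart. Of its 50-base sequences, 10.7% occur in other genes, so some reads may be shared.

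Ccl5, a chemokine made by cytotoxic T and natural killer cells, was lower in both models. It stood at 38.0 and 24.1 CPM in PBS_NT, 20.5 and 21.01 CPM in PBS_TJ41, 53.2 and 37.2 CPM in elastase+LPS_NT and 23.1 and 24.7 CPM in elastase+LPS_TJ41. The libraries did not overlap within either model. The log2FC was -0.75 (standard error 0.18) and -0.72 without the 2 NT libraries that stand apart. All 12 genes of the natural killer and cytotoxic list had a pooled log2FC below 0, with a median of -0.34. Of the 12, 1 (Ccl5) was lower at an unadjusted p under 0.05, against 1.65% of all genes. Nkg7, a protein of cytotoxic granules, had a log2FC of -0.42 and no overlap in either model, and the protease gene Gzmb had -0.65 with overlapping libraries in the COPD mice model. The list summed to 189 and 132 CPM in PBS_NT, 133 CPM in both PBS_TJ41 libraries, 217 and 96.1 CPM in elastase+LPS_NT and 94.7 and 108 CPM in elastase+LPS_TJ41. The median ran from -0.50 to 0.10 when 1 library was left out at a time. It was 0.10 without elastase+LPS_NT replicate 1, which held the highest sum.

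In the MHC class II list, 9 of 10 members had a log2FC below 0 in both models, with a median of -0.27. At an unadjusted p under 0.05, 3 of 10 were lower, against 1.65% of all genes. H2-DMa, a peptide exchange factor, stood at 78.4 and 62.3 CPM in PBS_NT, 59.4 and 46.3 CPM in PBS_TJ41, 82.7 and 110 CPM in elastase+LPS_NT and 79.0 and 63.1 CPM in elastase+LPS_TJ41. Its log2FC was -0.43 (standard error 0.15), or -0.23 without the 2 NT libraries that stand apart. The exception was Ctss, a lysosomal protease gene, at 0.15. In the interferon response list, 19 of 22 members were below 0 with a median of -0.26. At an unadjusted p under 0.05, 2 were lower, against 1.65% of all genes: the transcription factor gene Irf7 (-0.43) and the ubiquitin-like modifier gene Isg15 (-0.74). Without the 2 NT libraries that stand apart these were -0.10 and -0.049. Mx1, an antiviral GTPase gene, had 0.18. Without those libraries the medians of the MHC class II and interferon lists were -0.11 and -0.08.

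Immunoglobulin variable genes made up 7 of the 10 genes with the smallest p among those higher in both models without overlap. Igkv4-55, a kappa light chain variable gene, stood at 2.25 and 2.39 CPM in PBS_NT, 3.27 and 5.99 CPM in PBS_TJ41, 5.78 and 3.64 CPM in elastase+LPS_NT and 14.3 and 19.7 CPM in elastase+LPS_TJ41. Its log2FC was 1.45 (standard error 0.28, higher in both models, adjusted p = 0.972 by edgeR's quasi-likelihood test) and 1.28 without the 2 NT libraries that stand apart. Ighv1-18, a heavy chain variable gene, stood at 1.51 and 1.81 CPM in PBS_NT, 2.20 and 4.91 CPM in PBS_TJ41, 3.18 and 3.74 CPM in elastase+LPS_NT and 18.7 and 10.6 CPM in elastase+LPS_TJ41. Its log2FC was 1.63 (standard error 0.33), and 1.63 without those 2 libraries. Both genes were higher in every TJ41 library than in either NT library of the same model.

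Igkv3-12, the only gene called in the COPD mice model alone, stood at 2.13 and 2.71 CPM in elastase+LPS_NT and at 36.5 and 22.5 CPM in elastase+LPS_TJ41. In control mice the same gene stood at 1.31 and 1.14 CPM in PBS_NT and at 1.84 and 2.00 CPM in PBS_TJ41. Its log2FC was 3.60 in the COPD mice model (adjusted p = 0.0188 by edgeR's quasi-likelihood test, higher in 2 of 2 libraries) and 0.65 in control mice. The call was lost without any 1 of the 4 PBS libraries and without elastase+LPS_TJ41 replicate 1. The difference between these values did not pass the correction (adjusted p = 0.690 in the same edgeR test). The other variable genes of this set were Ighv9-2 (log2FC 2.78), Igkv4-61 (2.72), Ighv1-74 (1.69) and Igkv19-93 (1.02). Igkv4-61 stood at 10.8 and 1.73 CPM in the PBS_TJ41 libraries and at 26.3 and 7.30 CPM in the elastase+LPS_TJ41 libraries, so the libraries of 1 group differed severalfold. Sequence shared with other genes limits these values: 53.3% of the 50-base sequences of Igkv4-55, 35.8% of those of Ighv1-18, 58.4% of those of Igkv3-12 and 0% of those of Igkv19-93 occur in other transcripts.

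As groups, 66 of the 85 heavy chain variable genes tested had a pooled log2FC above 0, with a median of 0.86, and 24 were higher and 2 lower at an unadjusted p under 0.05. Of the 79 kappa variable genes tested, 65 were above 0, with a median of 0.50, and 12 were higher and 2 lower. Over all genes, 49.8% were above 0, and 1.02% were higher and 1.65% lower at the same unadjusted threshold. Only genes that passed the filter are counted, 85 of 113 heavy chain and 79 of 100 kappa variable genes. A plasma cell clone makes 1 heavy and 1 light chain, so these genes are not independent of each other. The heavy chain variable genes summed to 76.8 and 112 CPM in PBS_NT, 226 and 238 CPM in PBS_TJ41, 837 and 408 CPM in elastase+LPS_NT and 1369 and 437 CPM in elastase+LPS_TJ41. The sums did not overlap between diets in control mice and overlapped in the COPD mice model, where replicate 1 was the higher library on each diet. Without elastase+LPS_TJ41 replicate 1 the medians were 0.33 for heavy chain and 0.22 for kappa variable genes, with 11 and 7 genes higher at an unadjusted p under 0.05. Without the 2 NT libraries that stand apart they were 0.51 and 0.35.

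Several immunoglobulin genes differed in the opposite direction. Ighv8-5 stood at 4.74 and 11.5 CPM in elastase+LPS_NT and at 0.469 and 0.357 CPM in elastase+LPS_TJ41. In control mice it stood at 0.157 and 1.09 CPM in PBS_NT and at 0.256 and 0.108 CPM in PBS_TJ41, so the diets overlapped there, and all of these but PBS_NT replicate 2 were close to the level that a count of 0 allows. Its pooled log2FC was -3.51 (standard error 0.67). Igkv2-109 was lower in both models without overlap, with a log2FC of -0.93, and the lambda constant region gene Iglc3 was lower in all 4 TJ41 libraries than in all 4 NT libraries, with -0.68. Among constant regions, Ighg1 had a log2FC of 1.04 and Ighg2b of 1.64. Ighg1 had 0.60 without elastase+LPS_NT replicate 1 and 1.82 without the 2 NT libraries that stand apart. Igha, the constant region of IgA, stood at 89.3 and 185 CPM in PBS_NT, 371 and 358 CPM in PBS_TJ41, 655 and 989 CPM in elastase+LPS_NT and 1545 and 317 CPM in elastase+LPS_TJ41. Jchain, which joins IgA and IgM into polymers, stood at 43.3 and 63.2 CPM in PBS_NT, 201 and 185 CPM in PBS_TJ41, 802 and 521 CPM in elastase+LPS_NT and 894 and 313 CPM in elastase+LPS_TJ41. In control mice both TJ41 libraries lay above both NT libraries for each gene, with log2FC of 1.41 and 1.86, and overlapped in the COPD mice model, with 0.18 and -0.13. Of the 20 plasma cell and constant region genes, 3 were higher and 1 was lower at an unadjusted p under 0.05, against 1.02% and 1.65% of all genes. For markers of B cells, 10 of 13 had a log2FC below 0, with a median of -0.08, Cd79a of the B cell receptor had -0.31, and the kinase gene Blk had 0.08. The B cell median was 0.22 without elastase+LPS_NT replicate 1 and -0.27 without elastase+LPS_NT replicate 2. It was -0.36 without the 2 NT libraries that stand apart, with all 13 then below 0.

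**Figure D3:**
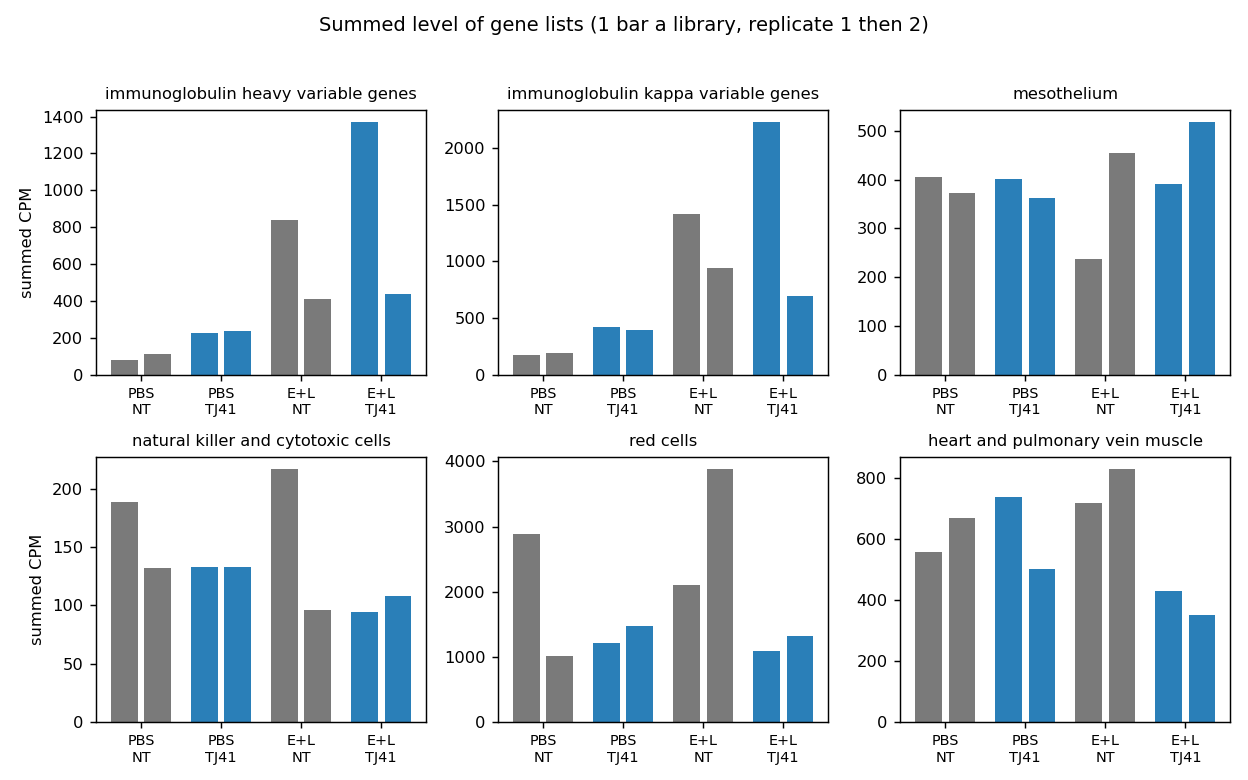
Summed CPM of 6 gene lists in each library, with 1 bar a library, grey for the control diet (NT), blue for the TJ-41 diet and E+L for elastase+LPS. The variable gene sums of the diets are apart in control mice and overlap in the COPD mice model, and red cell genes are highest in PBS_NT replicate 1 and elastase+LPS_NT replicate 2.

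Of 10 genes of the mesothelium, 4 were higher on the TJ-41 diet at an unadjusted p under 0.05, against 1.02% of all genes. Muc16, a membrane mucin of mesothelial cells, stood at 20.4 and 26.1 CPM in PBS_NT, 34.9 and 33.0 CPM in PBS_TJ41, 17.2 and 15.3 CPM in elastase+LPS_NT and 27.1 and 46.9 CPM in elastase+LPS_TJ41. All 4 TJ41 libraries lay above all 4 NT libraries, a separation found for 133 genes (0.647%). The log2FC was 0.86 (standard error 0.20, adjusted p = 0.972 by edgeR's quasi-likelihood test) and 0.72 without the 2 NT libraries that stand apart. Bnc1, a zinc finger gene, had a log2FC of 0.82, Lrrn4, a leucine-rich repeat membrane protein gene, had 0.65 and Gpm6a, a membrane glycoprotein gene, had 0.35. These 4 did not overlap in either model, and 9 of 10 members had a log2FC above 0. The exception was the keratin gene Krt19, at -0.27. The list median was 0.07 for control mice and 0.60 for the COPD mice model, and the summed level overlapped between diets in both models, at 363 to 406 CPM in control mice and 238 to 518 CPM in the COPD mice model. The lowest sum was that of elastase+LPS_NT replicate 1, and without this library the median was 0.12. Without PBS_NT replicate 1 and elastase+LPS_NT replicate 2 it was 0.72. Pkhd1l1, a large membrane protein gene that is on no list, had the smallest pooled p of any gene outside the immunoglobulins that was higher in both models without overlap. It stood at 23.4 and 40.04 CPM in PBS_NT, 57.3 and 52.1 CPM in PBS_TJ41, 28.3 and 19.9 CPM in elastase+LPS_NT and 41.5 and 60.0 CPM in elastase+LPS_TJ41. Its log2FC was 0.93 (standard error 0.20), or 0.64 without the 2 NT libraries.

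Heart muscle genes are also expressed in the muscle that lines the pulmonary veins of mice. All 14 heart muscle genes tested had a pooled log2FC below 0, with a median of -0.65, and 7 of 14 were lower at an unadjusted p under 0.05, against 1.65% of all genes. The medians were -0.10 for control mice and -1.0 for the COPD mice model. The list summed to 559 and 668 CPM in PBS_NT, 739 and 501 CPM in PBS_TJ41, 719 and 829 CPM in elastase+LPS_NT and 431 and 351 CPM in elastase+LPS_TJ41, so that the diets overlapped in control mice and were apart in the COPD mice model. Actc1, cardiac actin, stood at 105 and 132 CPM in PBS_NT, 105 and 96.6 CPM in PBS_TJ41, 86.2 and 145 CPM in elastase+LPS_NT and 60.5 and 59.5 CPM in elastase+LPS_TJ41. Its log2FC was -0.59 (standard error 0.20), or -0.36 without elastase+LPS_NT replicate 2. Myl4, an atrial myosin light chain gene, had -0.64, or -0.38 without the 2 NT libraries that stand apart. Nppa, the atrial hormone gene, had -3.50 in the COPD mice model and 0.01 in control mice, and 53.4% of its 50-base sequences occur in other genes. Cox6a2, a muscle form of a cytochrome oxidase subunit, stood at 15.8 and 9.39 CPM in PBS_NT, 5.42 and 5.51 CPM in PBS_TJ41, 7.40 and 16.8 CPM in elastase+LPS_NT and 5.32 and 7.0 CPM in elastase+LPS_TJ41. All 4 TJ41 libraries lay below all 4 NT libraries, with a log2FC of -1.09 (standard error 0.27), or -0.53 without the 2 NT libraries that stand apart. Myoz2, a sarcomere protein gene, had -0.98, or -0.55 without them, and the muscle creatine kinase gene Ckm had -0.92. The share of heart or vein muscle in each lung piece is not known, and its part in these values was not tested.

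All 10 red cell genes tested had a log2FC below 0, with a median of -0.69. At an unadjusted p under 0.05, 6 of 10 were lower, against 1.65% of all genes. The list summed to 2889 and 1015 CPM in PBS_NT, 1216 and 1469 CPM in PBS_TJ41, 2106 and 3878 CPM in elastase+LPS_NT and 1090.1 and 1315 CPM in elastase+LPS_TJ41. Hba-a2, an alpha globin gene with a near copy (86.9% of 50-base sequences shared), stood at 804 and 257 CPM in PBS_NT, 294 and 374 CPM in PBS_TJ41, 566 and 1241 CPM in elastase+LPS_NT and 272 and 354 CPM in elastase+LPS_TJ41. The PBS libraries overlapped, and the log2FC was -1.10 (standard error 0.36), or -0.28 without the 2 NT libraries that stand apart. The median of the list without them was -0.21, with 0 members at an unadjusted p under 0.05. Lyz1, a lysozyme gene of alveolar type II cells, and the metallothionein gene Mt1 also had their highest levels in these 2 libraries, with log2FC of -0.72 and -0.92, and -0.03 and -0.13 without the 2 libraries. What these 2 libraries have in common besides the diet was not tested.

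Of 23 genes of the cell cycle, 21 had a log2FC below 0, with a median of -0.21. At an unadjusted p under 0.05, 6 were lower and 0 higher, against 1.65% and 1.02% of all genes. Cdk1, the mitotic kinase, stood at 6.32 and 7.93 CPM in PBS_NT, 4.20 and 3.83 CPM in PBS_TJ41, 2.81 and 5.58 CPM in elastase+LPS_NT and 2.55 and 3.12 CPM in elastase+LPS_TJ41. Its log2FC was -0.70 (standard error 0.24), and its libraries overlapped in the COPD mice model. Top2a, a topoisomerase of dividing cells, had a log2FC of -0.36 and no overlap in either model, and Plk1, another mitotic kinase gene, had 0.22. Without the 2 NT libraries that stand apart, the list had a median of -0.25, with 21 of 23 members below 0. Its median was -0.11 without PBS_TJ41 replicate 2. By model it was -0.39 for control mice and -0.11 for the COPD mice model. In the ribosomal protein list all 20 members were below 0 with a median of -0.32. Of these, 6 were at an unadjusted p under 0.05, against 1.65% of all genes, led by Rpl4 (-0.36). The ribosomal median was 0.02 and Rpl4 had -0.14 without the 2 NT libraries that stand apart.

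Genes of the AMPK and mTOR pathway and of autophagy, which the study examined as proteins, stayed close to 0. Of 20 AMPK and mTOR genes, 11 had a log2FC above 0, the median was 0.01 and 0 were at an unadjusted p under 0.05. Mtor stood at 59.4 and 69.9 CPM in PBS_NT, 73.4 and 67.7 CPM in PBS_TJ41, 59.6 and 53.8 CPM in elastase+LPS_NT and 68.8 and 72.2 CPM in elastase+LPS_TJ41, with a log2FC of 0.22 (standard error 0.11), or 0.13 without the 2 NT libraries that stand apart. The catalytic subunit genes of AMPK, Prkaa1 and Prkaa2, had log2FC of 0.01 (standard error 0.12) and 0.06 (standard error 0.14), Rps6kb1, the S6 kinase gene, had 0.11, and Eif4ebp1, a translation repressor gene, had -0.25. The 95% interval of the Prkaa1 log2FC lay within 1 in either direction, as it did for most genes. Of 16 autophagy genes, 11 were below 0, the median was -0.09 and 0 were at an unadjusted p under 0.05. Map1lc3b, which encodes LC3B, had -0.12, Map1lc3a had -0.30 and Ulk1, the initiating kinase gene, had 0.09. RNA levels do not measure phosphorylation.

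Of the cytokine genes, Il33, an alarmin gene, had 100.2 to 203 CPM over the libraries, while Il6, Tnf and Il1a were low. Il6 stood at 0.784 and 1.19 CPM in PBS_NT, 0.614 and 1.19 CPM in PBS_TJ41, 0.990 and 1.43 CPM in elastase+LPS_NT and 0.521 and 0.613 CPM in elastase+LPS_TJ41. The diets overlapped in control mice and did not overlap in the COPD mice model, and the pooled log2FC was -0.60 (standard error 0.36). Tnf had a log2FC of 0.34 for control mice and -0.66 for the COPD mice model, and the pooled value was -0.17 (standard error 0.30). Il1a had 0.28. Of the 12 cytokine genes tested, 0 were at an unadjusted p under 0.05. Of 25 chemokine genes, 20 had a log2FC below 0, with a median of -0.01 for control mice and -0.71 for the COPD mice model. At an unadjusted p under 0.05, 2 of the 25 were lower, against 1.65% of all genes. Of the members above 0, Cxcl5 had the smallest p and a log2FC of 0.43. The chemokine median was 0.04 without the 2 NT libraries that stand apart.

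**Figure D4:**
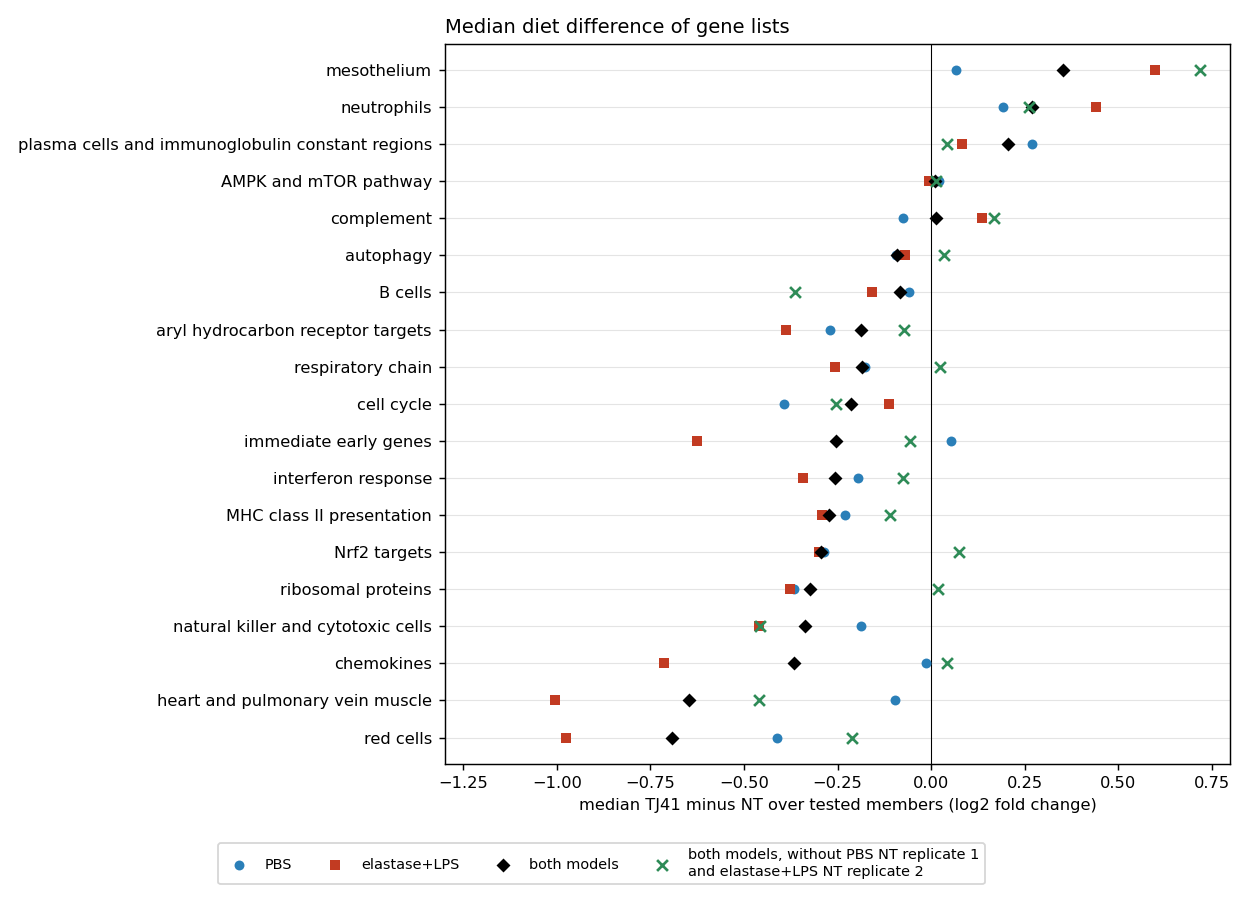
Median log2 fold change of TJ41 minus NT over the tested members of 19 gene lists, for control mice (circles), the COPD mice model (squares) and both together (diamonds), and for both without PBS_NT replicate 1 and elastase+LPS_NT replicate 2 (crosses). The medians of the Nrf2, ribosomal, respiratory chain and chemokine lists move to 0 or above without these libraries, while the mesothelium, cell cycle and natural killer lists keep their side. Without elastase+LPS_NT replicate 1 alone (not drawn), the natural killer median was 0.10 and the mesothelium median 0.12.

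Of the 49 lists, 33 had a pooled median below 0 and 16 above, no list held a called gene, and in 5 lists every tested member was below 0 (Nrf2 targets, ribosomal proteins, natural killer and cytotoxic cells, heart muscle and red cells). Without the 2 NT libraries that stand apart, the median changed sign in 17 of the 49 lists. Single members that led other lists were Col4a3, a basement membrane collagen gene (log2FC 0.43), Lep, the leptin gene (1.06), and Noxo1, an organizer of NADPH oxidase 1 (0.63, with 44.8% of 50-base sequences shared), all higher, and Fosb, an immediate early transcription factor gene (-1.15), Agr2, a disulphide isomerase gene of mucous cells (-1.06), and Cox7a2 of the respiratory chain (-0.51), all lower. Without the 2 NT libraries that stand apart, Cox7a2 had -0.082, Col4a3 0.24, Agr2 -0.70 and Fosb -0.82. Fosb had -0.65 without elastase+LPS_NT replicate 2 alone. Lep stood at 0.314 and 0.467 CPM in PBS_NT, 1.18 and 0.540 CPM in PBS_TJ41, 0.312 and 0.358 CPM in elastase+LPS_NT and 0.730 and 0.613 CPM in elastase+LPS_TJ41. All 4 TJ41 libraries lay above all 4 NT libraries, at low levels. The remaining genes of the sets without overlap were Bcan, a proteoglycan gene (-0.86), A130071D04Rik (-2.25), Gm19950 (-2.03) and Gm15536 (-1.16), which were lower, and Gm18190 (1.24), which was higher. Without the same 2 libraries, A130071D04Rik had -1.25, Gm19950 -1.08 and Gm15536 -0.46. Gm15536 and Gm18190 share 100% and 75.4% of their 50-base sequences with other genes, so their counts are uncertain.

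For the genes named here, leaving out libraries changed the sizes of the differences more often than their directions. Of the 79 genes followed over each alternative that tested them, 67 kept the sign of their pooled log2FC throughout. The pooled log2FC of the 12 others lay between -0.30 (Map1lc3a) and 0.43 (Cxcl5). Many of the 79 were chosen for their values in these libraries, so the kept signs are a description and not a test of stability. Cyp1a1 ran from -5.80 to -3.84 with 1 library left out at a time, and Serpina3f from -1.70 to -1.08. Igkv4-55 ran from 1.23 to 1.67, Ighv1-18 from 1.32 to 1.88, Muc16 from 0.62 to 1.00, Pkhd1l1 from 0.78 to 1.14 and Ccl5 from -0.90 to -0.61. Leaving out PBS_NT replicate 1 and elastase+LPS_NT replicate 2 together moved Cyp1a1, Serpina3f (-0.97) and Pkhd1l1 (0.64) beyond these ranges toward 0, and left Ccl5, Muc16, Igkv4-55 and Ighv1-18 within them.

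**Figure D5:**
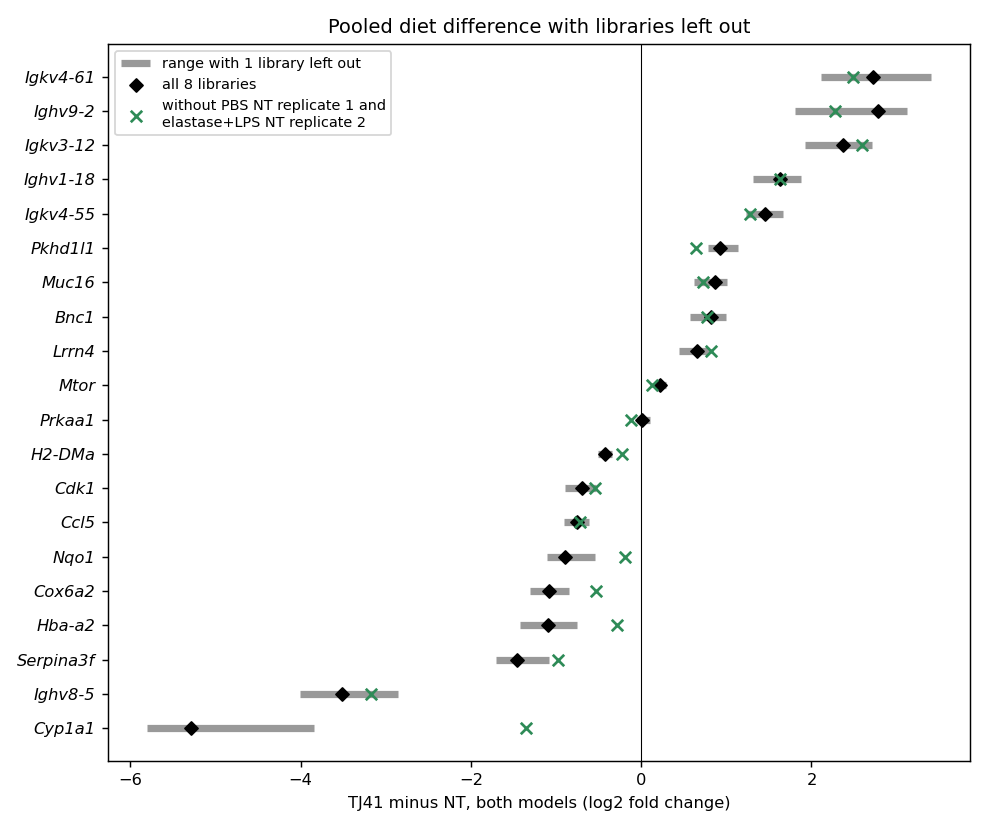
Pooled log2 fold change of TJ41 minus NT for 20 genes with all 8 libraries (diamonds), the range when 1 library is left out at a time (grey bars), and the value without PBS_NT replicate 1 and elastase+LPS_NT replicate 2 (crosses). The crosses of Cyp1a1, Nqo1, Cox6a2, Hba-a2, Serpina3f, H2-DMa, Pkhd1l1 and Mtor lie outside their grey bars toward 0. That of Lrrn4 lies above its bar and that of Prkaa1 below its bar. Those of the other genes, among them Igkv4-55, Ighv1-18, Muc16 and Ccl5, lie within them.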

How the data were processed

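RNA of 8 mouse lung samples was sequenced. The authors deposited whole-number read counts per Ensembl gene for each library, without normalization. The submitters' processing notes name HISAT2, edgeR and the build mm10, and the study's methods name CLC Genomics Workbench. How reads were counted, whether strand was used and what became of multi-mapping reads are not given in the sources used here. Samples were grouped by their titles, and TJ4 in another label was read as TJ41. Of 52636 identifiers, 52489 matched GENCODE M21 (GRCm38).

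The deposited counts went into edgeR 4.0.16 (R 4.3.3). The filter was filterByExpr over the 4 groups (minimum count 10, minimum total 15). Libraries were scaled by TMM (factors 0.935 to 1.02), and genes were fitted with model and diet as additive terms, with 5 residual degrees of freedom and a common biological coefficient of variation of 0.203. The quasi-likelihood test was followed by Benjamini-Hochberg adjustment over all 20546 genes. A second fit with 1 mean for each group gave the diet effect in each model and their difference. Replicates of a group differed by 12.0 to 88.6 times the counting variance, so no library was a copy. The members, the 49 gene lists and the tests were chosen with earlier results of these data known. Named genes were those called, the 10 with the smallest pooled p in each direction among genes without overlap in both models, genes of proteins and cytokines that the study measured, and the leading member in each direction of each list described. Other genes, such as Ighv8-5, Jchain, Igha, Ighg2b, Nkg7, Gzmb, Top2a, Nppa, Isg15, Gsta1 and further members of the aryl hydrocarbon receptor and mesothelium lists, were chosen after their values were seen. Alternatives were DESeq2 1.42.0, limma 3.58.1, other scalings and filters, a loess correction for transcript length and GC, a replicate block and leaving out libraries. The code was tested on simulated data.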

Additional observations from a re-analysis of the deposited data

Results flagged for a closer look

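In 158 sets of the 4 libraries on 1 diet, made from the 79 genes followed here, 10 held a library whose gap to the nearest of the others exceeded Dixon's 95% critical value for 4 values, and chance flags about 1 in 20 sets. Ahrr stood at 1.10 CPM in PBS_NT replicate 1, against 0.519 to 0.563 CPM in the other NT libraries, and at 0.702 CPM in PBS_TJ41 replicate 2, against 0.408 to 0.417 CPM in the other TJ41 libraries. Igha stood at 1545 CPM and Ighg2b at 1449 CPM in elastase+LPS_TJ41 replicate 1, against at most 371 and 148 CPM in the other TJ41 libraries. Elastase+LPS_TJ41 replicate 2 was high for Cox6a2 (6.996 CPM, against 5.32 to 5.51) and Mt1 (16.9 CPM, against 8.48 to 9.64), and low for Mx1 (6.13 CPM, against 9.61 to 10.1). Il6 stood at 1.19 CPM in PBS_TJ41 replicate 2, against 0.521 to 0.614 CPM in the other TJ41 libraries. Elastase+LPS_NT replicate 2 was high for A130071D04Rik (3.38 CPM, against 0.571 to 0.732) and Agr2 (2.61 CPM, against 0.836 to 1.09).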

How the results depend on the processing

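The pooled diet count of 0 DEGs was also 0 under 19 of 22 alternatives. It was 5 with DESeq2, 5 with edgeR's likelihood ratio test (Cyp1a1, Serpina3f, Ighv8-5, Igkv4-55 and Ighv1-18 in both) and 1 with the replicate block (Igkv4-61). The labels do not say whether a replicate number marks a shared batch, so the block is given here only. Correlations of replicate differences between groups ran from -0.234 to 0.108. With 1 such difference a group, they cannot exclude a shared batch. In control mice the count was 10 with DESeq2. In the COPD mice model it was 14 with DESeq2, 2 with all genes that had a count, 0 with the replicate block, and 0 to 728 with 1 library left out, where 728 came without elastase+LPS_NT replicate 1, 13 without elastase+LPS_NT replicate 2 and 4 without elastase+LPS_TJ41 replicate 2. For the difference between the diet effects it was 17 with DESeq2, 6 with all genes that had a count, and 0 to 14 with 1 library left out. The 2 largest of these counts, 14 and 9, came without elastase+LPS_NT replicate 1 and replicate 2. The number of genes at an unadjusted p under 0.05 in the pooled fit went from 549 to 4394 without elastase+LPS_NT replicate 1 and to 1222 without PBS_NT replicate 2. The share of genes with the same sign in both models was 50.9% with library size alone, 45.1% with all genes that had a count, 54.7% with the correction for transcript length and GC, and 34.2% to 63.7% with 1 library left out. The number of genes without overlap in both models was 1126 with all genes that had a count, against 740. When 1 library leaves a group with a single one, that library is assumed to vary like the other groups.

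Of 1717 recomputed log2FC values of the genes named here, 1689 kept their sign, and many of these genes were chosen for their values in these libraries. With 1 library left out, Tiparp ran from -0.0392 to 0.15, Prkaa1 from -0.0488 to 0.10, Prkaa2 from -0.0229 to 0.20, Rps6kb1 from -0.00449 to 0.28, Map1lc3b from -0.26 to 0.0826, Tnf from -0.36 to 0.10, Ulk1 from -0.0421 to 0.18, Ctss from -0.0222 to 0.27, Mx1 from -0.0343 to 0.47, Cxcl5 from -0.0651 to 0.89 and Blk from -0.0829 to 0.25. With the correction for transcript length and GC, Tiparp had -0.0144, Prkaa1 -0.0741 and Prkaa2 -0.0792. Leaving out PBS_NT replicate 1 and elastase+LPS_NT replicate 2 together was chosen after the data were seen, and gave Tiparp -0.0730, Prkaa1 -0.11, Prkaa2 -0.13, Rps6kb1 -0.0581, Map1lc3b 0.17, Map1lc3a 0.0948, Tnf 0.17 and Blk -0.16. The causes were not tested.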

Other observations

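Neutrophil genes had a log2 fold change of TJ41 minus NT above 0 for 13 of 16 tested members, with a median of 0.27. The median ran from 0.049 to 0.53 with 1 library left out at a time, and none of the 16 genes was at an unadjusted p under 0.05. Their summed level ran from 400 to 469 CPM in PBS_NT, 376 to 538 CPM in PBS_TJ41, 529 to 1122 CPM in elastase+LPS_NT and 587 to 770 CPM in elastase+LPS_TJ41, so the diets overlapped in both models. Genes of fibroblasts and pericytes had a log2 fold change above 0 for 14 of 16 members, with a median of 0.10, and 0 of them at an unadjusted p under 0.05 by edgeR's quasi-likelihood test.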
